A study of Mus musculus with 12 samples.

Results

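Jchain, Mzb1, Sdc1, Prdm1, Irf4, Pou2af1 and Pigr, 7 genes tied to plasma cells and to the secretion of antibody, were described in mouse lung after paraquat. They were matched by symbol in the deposited gene tables, and all 7 of 20774 listed genes were found and tested. The mice were C57BL/6J, of wild type genotype and with an age label of 8 weeks. They received paraquat (PQ), a herbicide that injures the lung, once into the trachea in saline, or saline as the control. Bulk lung RNA was sequenced in 12 libraries, 3 each from PQ 1w, control 1w, PQ 4w and control 4w lungs, the times being read as weeks. The labels number the replicates without saying that each is another animal, and p-values refer to the variation among these libraries alone.

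Plasma cells are the end stage of B cells and secrete antibody in bulk. Irf4 and Prdm1, which encodes Blimp-1, are transcription factors that drive the change from B cell to plasma cell. Pou2af1 encodes a coactivator of the octamer-binding factors at immunoglobulin promoters. Mzb1 encodes an endoplasmic reticulum protein that helps antibody assembly. Jchain encodes the joining chain of polymeric IgM and IgA, and Pigr encodes the epithelial receptor that carries these polymers across the mucosa into the airway. Sdc1 encodes syndecan-1, a heparan sulphate proteoglycan used as a surface marker of plasma cells and abundant on epithelium. Several of the 7 are therefore also expressed outside plasma cells: Sdc1 and Pigr in epithelium, Pou2af1 in B cells, and Irf4 and Prdm1 in T cells and myeloid cells.

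Library totals were 17220978 to 18559809 expected counts. PQ 4w replicate 3 stood apart from its group: chi-square per degree of freedom over genes was 30.8 and 32.9 against the other PQ 4w libraries, and 7.12 to 15.4 between the other libraries of a group. Its summed B cell list was the highest of the 12 libraries, and its summed ciliated and secretory airway lists were the lowest of the 4w libraries. Values of the 7 genes in comparisons with PQ 4w are given with and without it where it changes them by more than 1.5 times or changes a call. The lung label was checked on a list of 10 alveolar type 2 genes, which summed to 17244 to 19176 CPM (expected counts scaled to the library's total) in PQ 1w, 27876 to 33865 CPM in control 1w, 27473 to 29378 CPM in PQ 4w and 24325 to 27240 CPM in control 4w libraries. Genes encoding immunoglobulin constant regions were not analysed here.

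Promoters of 6 of the genes were searched for 4 short motifs on both strands. The promoters of Jchain, Irf4, Pou2af1 and Pigr are shown because each held a match, while those of Sdc1 and Prdm1 held none of the 4. The sequences are RefSeq's for GRCm38.p6, from 250 bases before to 50 bases after the gene's start, written 5′ to 3′ on the gene's strand, with the motif match in capitals. Jchain lies at chr5:88527848-88528147 on the minus strand. The other promoters shown are on the plus strand, Irf4 at chr13:30748983-30749282, Pou2af1 at chr9:51213440-51213739 and Pigr at chr1:130826434-130826733. The stretch searched for Prdm1, chr10:44458699-44458998 on the minus strand, lies inside the gene's span of 44437174 to 44528558. It is therefore not at the outer end of that span.
Jchain: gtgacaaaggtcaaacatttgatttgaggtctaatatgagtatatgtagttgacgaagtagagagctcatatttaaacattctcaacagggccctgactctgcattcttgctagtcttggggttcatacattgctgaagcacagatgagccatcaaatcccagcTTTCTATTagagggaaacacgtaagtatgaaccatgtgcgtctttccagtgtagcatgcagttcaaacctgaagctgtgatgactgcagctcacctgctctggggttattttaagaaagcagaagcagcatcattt
Irf4: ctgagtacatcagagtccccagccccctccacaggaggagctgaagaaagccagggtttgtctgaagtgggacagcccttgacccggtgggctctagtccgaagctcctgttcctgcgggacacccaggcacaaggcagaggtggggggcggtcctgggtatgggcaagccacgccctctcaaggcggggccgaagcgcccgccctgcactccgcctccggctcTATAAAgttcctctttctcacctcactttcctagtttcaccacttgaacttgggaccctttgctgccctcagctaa
Pou2af1: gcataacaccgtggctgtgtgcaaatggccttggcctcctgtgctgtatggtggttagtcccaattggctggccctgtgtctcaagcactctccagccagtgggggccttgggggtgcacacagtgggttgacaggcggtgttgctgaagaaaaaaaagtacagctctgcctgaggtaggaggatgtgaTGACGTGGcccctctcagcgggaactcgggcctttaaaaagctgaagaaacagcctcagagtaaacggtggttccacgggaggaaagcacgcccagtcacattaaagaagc
Pigr: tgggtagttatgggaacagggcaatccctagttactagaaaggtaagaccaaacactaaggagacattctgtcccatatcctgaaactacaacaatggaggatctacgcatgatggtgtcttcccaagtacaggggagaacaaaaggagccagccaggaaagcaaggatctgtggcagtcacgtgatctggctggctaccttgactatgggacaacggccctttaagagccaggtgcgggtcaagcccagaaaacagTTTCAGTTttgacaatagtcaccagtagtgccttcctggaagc
In Jchain the capitals mark the interferon regulatory factor core AANNGAAA, read on the opposite strand and beginning 86 bases before the start. In Irf4 they mark the TATA box TATAAA, 26 bases before the start. In Pou2af1 they mark the unfolded protein response element TGACGTGG, 61 bases before the start. In Pigr they mark the interferon regulatory factor core on the opposite strand, beginning 7 bases after the start. The octamer ATGCAAAT was not matched in any of the 6 promoters searched, and 1.74% of 32851 RefSeq promoters of that length held it. The same share was 23.9% for the interferon regulatory factor core, 13.6% for the TATA box and 0.676% for the unfolded protein response element. No matches of different motifs overlapped. These matches describe letters only.

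At 1w, 6 of the 7 genes fell and Sdc1 rose in PQ lungs, and at 4w Jchain, Mzb1 and Irf4 rose while the other 4 did not pass. Genes passed at an adjusted p under 0.05 in edgeR's quasi-likelihood test over all 15921 genes tested, with Benjamini-Hochberg adjustment. In PQ 1w against control 1w, 7 of 7 passed, beside 48.8% of all genes, made up of 25.9% higher and 22.9% lower. In PQ 4w against control 4w, 3 of 7 passed, all higher, beside 12.1% of all genes, made up of 5.75% higher and 6.39% lower. The median log2 effect of the 7 was -1.18 at 1w and 0.82 at 4w, against 0.00 over all genes at both times. In bulk lung, fewer cells of a type and less RNA per cell cannot be told apart.

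Levels of different genes were compared as FPKM, which is scaled to transcript length. In PQ 1w lungs Sdc1 was at 119 to 133 FPKM and the other 6 genes were at 0.68 to 7.29 FPKM. In PQ 4w lungs Jchain came first, at 132 to 295 FPKM, above Sdc1 at 76.0 to 90.2 FPKM, and Irf4, at 2.08 to 4.95 FPKM, overlapped Prdm1, at 2.04 to 3.32 FPKM. In control 4w lungs the order was Sdc1 at 68.8 to 74.2, Pigr at 23.6 to 33.2, Jchain at 7.74 to 8.88, Mzb1 at 6.07 to 6.84, Pou2af1 at 6.11 to 6.46, Prdm1 at 3.10 to 3.47 and Irf4 at 1.02 to 1.28 FPKM. The ranges of Mzb1 and Pou2af1 overlapped there, and those of no other neighbours in that order.

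**Figure D1:**
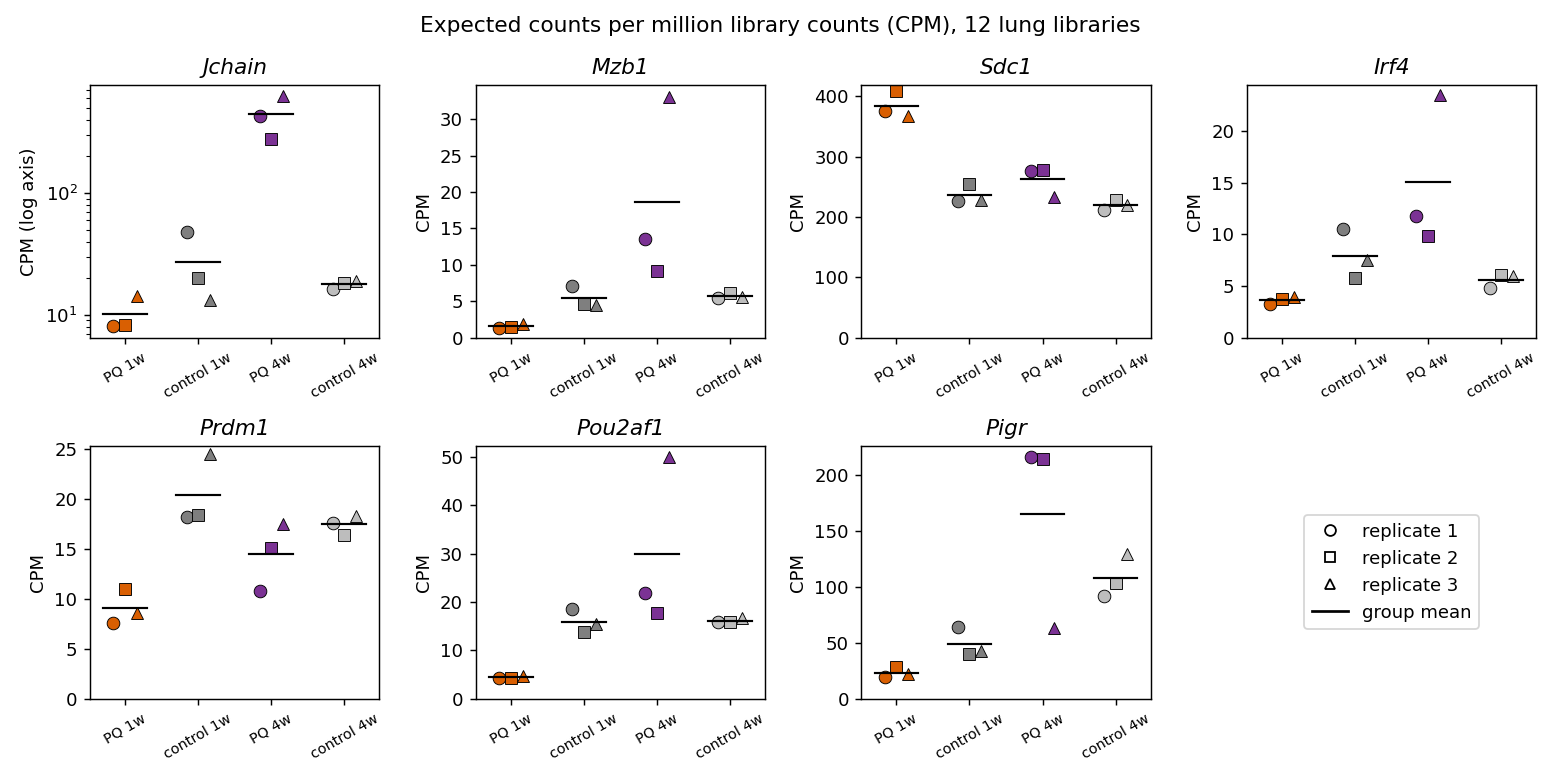
Expected counts scaled to the library's total (CPM, vertical axes, logarithmic for Jchain) in each of the 12 libraries, with a panel per gene and the groups along the horizontal axes; points are libraries, shapes are replicates and lines are group means. Jchain in PQ 4w lungs lies between 279.6 and 623 CPM, above all other libraries, whose highest value is 47.7 CPM.

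Jchain (GRCm38 chromosome 5, 88519809 to 88527897) showed the greatest rise of the 7. It had 429, 279.6 and 623 CPM in PQ 4w lungs, against 16.4, 18.4 and 18.8 CPM in control 4w lungs. The lowest PQ 4w library was far above the highest control library. Group means were 444 ± 172 CPM in PQ 4w and 17.8 ± 1.28 CPM in control 4w lungs (SD, n = 3 each). The rise was 23.6-fold, a log2 effect of 4.56 ± 0.43 (SE) with an edgeR adjusted p of 0.000247. Without PQ 4w replicate 3 the log2 effect was 4.23, with an edgeR adjusted p of 0.000109.

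At 1w the same gene was low in PQ lungs. Jchain had 8.03, 8.25 and 14.2 CPM in PQ 1w lungs, against 47.7, 20.0 and 13.3 CPM in control 1w lungs. The groups overlapped, since PQ 1w replicate 3 lay above control 1w replicate 3. The log2 effect was -1.42 ± 0.43, a level 0.375 times that of control 1w (edgeR adjusted p = 0.016). The call was lost without control 1w replicate 1, where the log2 effect was -0.72 (edgeR adjusted p = 0.113), and without PQ 1w replicate 1 or 2 (0.0597 and 0.0577). The expected counts of Jchain were whole numbers in 2 of 12 libraries, and a single transcript was listed for it. Some of its reads were therefore divided with other genes in the authors' counting, and these genes were not identified.

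Mzb1 (chromosome 18, 35647265 to 35650266) was among the lower genes, with 24, 28 and 36 expected counts in the PQ 1w libraries. That was 1.29, 1.51 and 1.96 CPM in PQ 1w lungs, against 7.12, 4.70 and 4.55 CPM in control 1w lungs. The groups did not overlap, and Mzb1 fell by 1.79 ± 0.44 on the log2 scale (edgeR adjusted p = 0.00524). At 4w Mzb1 had 13.5, 9.11 and 33.1 CPM in PQ lungs, against 5.52, 6.22 and 5.67 CPM in control lungs. All 3 PQ 4w libraries were higher than the 3 controls, with replicate 3 the highest. The rise was 3.04-fold (log2 1.60 ± 0.38, edgeR adjusted p = 0.0178). Without PQ 4w replicate 3 it was 0.89 on the log2 scale (edgeR adjusted p = 0.0171). The call was lost without any 1 of the control 4w libraries (adjusted p of 0.072, 0.0534 and 0.0565 without replicates 1, 2 and 3) and in a fit of only these groups (0.0818).

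Irf4 (chromosome 13, 30749233 to 30766981) had 3.23, 3.72 and 3.92 CPM in PQ 1w lungs, against 10.5, 5.76 and 7.51 CPM in control 1w lungs. All PQ 1w libraries were lower, and the log2 effect was -1.14 ± 0.31 (edgeR adjusted p = 0.00914). Without control 1w replicate 1 it was -0.88 (edgeR adjusted p = 0.0519). At 4w Irf4 had 11.8, 9.85 and 23.4 CPM in PQ lungs, against 4.84, 6.05 and 6.00 CPM in control lungs. The groups did not overlap, and the rise was 2.53-fold (log2 1.34 ± 0.29, edgeR adjusted p = 0.0138). It was 0.87 on the log2 scale without PQ 4w replicate 3 (edgeR adjusted p = 0.0183), and the call was lost without control 4w replicate 1 (0.0651) and in a fit of only these groups (0.06).

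Pou2af1 (chromosome 9, 51213690 to 51240079) had the lowest log2 effect of the 7 at 1w. It had 4.26, 4.37 and 4.69 CPM in PQ 1w lungs, against 18.5, 13.9 and 15.5 CPM in control 1w lungs. The PQ libraries were close together and all lower, at 0.276 times the control level (log2 -1.86 ± 0.32, edgeR adjusted p = 0.000524). At 4w it had 21.8, 17.8 and 50.1 CPM in PQ lungs, against 15.8, 15.9 and 16.7 CPM in control lungs. The groups did not overlap, but the effect of 0.82 ± 0.29 did not pass (edgeR adjusted p = 0.0884). It was 0.22 without PQ 4w replicate 3 (edgeR adjusted p = 0.261), while it passed without PQ 4w replicate 2 (1.09, adjusted p = 0.0211) and with DESeq2 (0.84, adjusted p = 0.0347).

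Prdm1 (chromosome 10, 44437174 to 44528558) fell at 1w. It had 7.60, 10.96 and 8.56 CPM in PQ 1w lungs, against 18.2, 18.4 and 24.5 CPM in control 1w lungs. No PQ 1w value reached the controls, and the level was 0.441 times that of control 1w (log2 -1.18 ± 0.19, edgeR adjusted p = 0.000303). At 4w the values were 10.8, 15.1 and 17.5 CPM in PQ lungs, against 17.6, 16.4 and 18.3 CPM in control lungs. These groups overlapped, and the log2 effect of -0.34 ± 0.19 did not pass (edgeR adjusted p = 0.262). Whether the effects of Prdm1 and Irf4 at 4w differed from each other was not tested.

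Sdc1 (chromosome 12, 8771396 to 8793716) rose at 1w, unlike the other 6 genes. It had 375.7, 408.6 and 367.0 CPM in PQ 1w lungs, against 226.2, 254.5 and 227.4 CPM in control 1w lungs. All PQ 1w libraries were higher, by 1.61-fold (log2 0.69 ± 0.08, edgeR adjusted p = 3.28e-05). At 4w it had 276.8, 277.9 and 233.9 CPM in PQ lungs, against 211.8, 228.6 and 220.6 CPM in control lungs. The groups did not overlap, but the effect of 0.18 ± 0.08 did not pass (edgeR adjusted p = 0.171). Without PQ 4w replicate 3 it was 0.26 (edgeR adjusted p = 0.0477). Of a list of 10 general epithelial genes, 6 rose, 0 fell and 4 did not pass at 1w; Cldn4, a tight junction gene, had a log2 effect of 3.43 and Krt7, a keratin gene, one of 0.97. That list summed to 2192 to 2720 CPM in PQ 1w and 1448 to 1706 CPM in control 1w libraries. Epcam, an epithelial adhesion gene chosen after its values were seen, had an effect of -0.03 at 1w (edgeR adjusted p = 0.872). The part of epithelial cells in the rise of Sdc1 was not tested. Of 7 other genes tested, from a list of syndecans, heparan sulphate and shedding, 3 rose, 1 fell and 3 did not pass at 1w. Gpc1, a glypican gene, was at 1.39. The counts of both lists stand beside 48.8% of all genes that passed at 1w.

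Pigr (chromosome 1, 130826684 to 130852249) had 19.1, 28.2 and 22.5 CPM in PQ 1w lungs, against 64.5, 39.8 and 42.7 CPM in control 1w lungs. All PQ 1w libraries were lower, at 0.472 times the control level (log2 -1.08 ± 0.38, edgeR adjusted p = 0.0329). The call was lost without control 1w replicate 1 (0.125), PQ 1w replicate 1 (0.1) or PQ 1w replicate 3 (0.0856), and with limma on FPKM (0.0536). At 4w Pigr had 216.5, 214.8 and 63.1 CPM in PQ lungs, against 91.9, 103.6 and 129.1 CPM in control lungs. PQ 4w replicates 1 and 2 were above all controls and replicate 3 was below them. The log2 effect was 0.54 ± 0.36 (edgeR adjusted p = 0.363), and without PQ 4w replicate 3 it was 0.92 (edgeR adjusted p = 0.00929). The expected counts of Pigr were whole in 0 of 12 libraries, so some of its reads were divided too.

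The airway lists were read beside Pigr. In the fit to all 12 libraries, 48.8% of all genes passed at 1w and 12.1% at 4w. Summed levels of 10 ciliated genes were 3275, 3208 and 2166 CPM in PQ 4w libraries 1, 2 and 3, against 2697 to 3093 CPM in control 4w libraries. Summed levels of 12 secretory airway genes were 46108, 56073 and 27228 CPM in PQ 4w libraries, against 51942 to 60691 CPM in control 4w libraries. Scgb1a1, a club cell secretory gene chosen after its values were seen, made up most of that sum, with 32902.5, 41899 and 20818.8 CPM in PQ 4w replicates 1, 2 and 3. Both lists were lowest in PQ 4w replicate 3, which also had the lowest Pigr of the 4w libraries. Of the secretory list, 1 gene rose, 1 fell and 10 did not pass at 4w, and of the ciliated list none passed in edgeR, 0 had an unadjusted p under 0.05 and DESeq2 called 0. Without PQ 4w replicate 3 these counts were 4 higher and 1 lower for the secretory list and 3 higher and 0 lower for the ciliated list. The median log2 effect of the secretory list was 0.87 at 1w and 1.10 at 4w. At 1w it had 1 higher and 3 lower genes, with Lcn2, an iron-sequestering antimicrobial gene, at 1.73 (1.08 at 4w) and Cyp2f2, a club cell cytochrome, at -2.66. The ciliated list had 0 higher and 3 lower at 1w. Without PQ 4w replicate 3 the counts at 1w were 3 higher and 4 lower for the secretory list and 6 lower for the ciliated list. The FPKM ratio of Pigr to Scgb1a1 was 0.000745, 0.000580 and 0.000343 in PQ 4w lungs, against 0.000244, 0.000293 and 0.000309 in control 4w lungs. At 1w it was 0.000452, 0.000916 and 0.000703 in PQ lungs, against 0.000278, 0.000164 and 0.000248 in control lungs. At both times each PQ library was above all its controls in this ratio, with an exact two-sided permutation p of 0.1, the smallest possible. Scgb1a1 had 4790, 3490 and 3616 CPM in PQ 1w lungs, against 26282, 27500 and 19439 CPM in control 1w lungs. In control 4w lungs it had 42663, 39980 and 47268 CPM. Both genes of the ratio were lower in PQ lungs at 1w, so the higher ratio there is not a rise of Pigr.

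**Figure D2:**
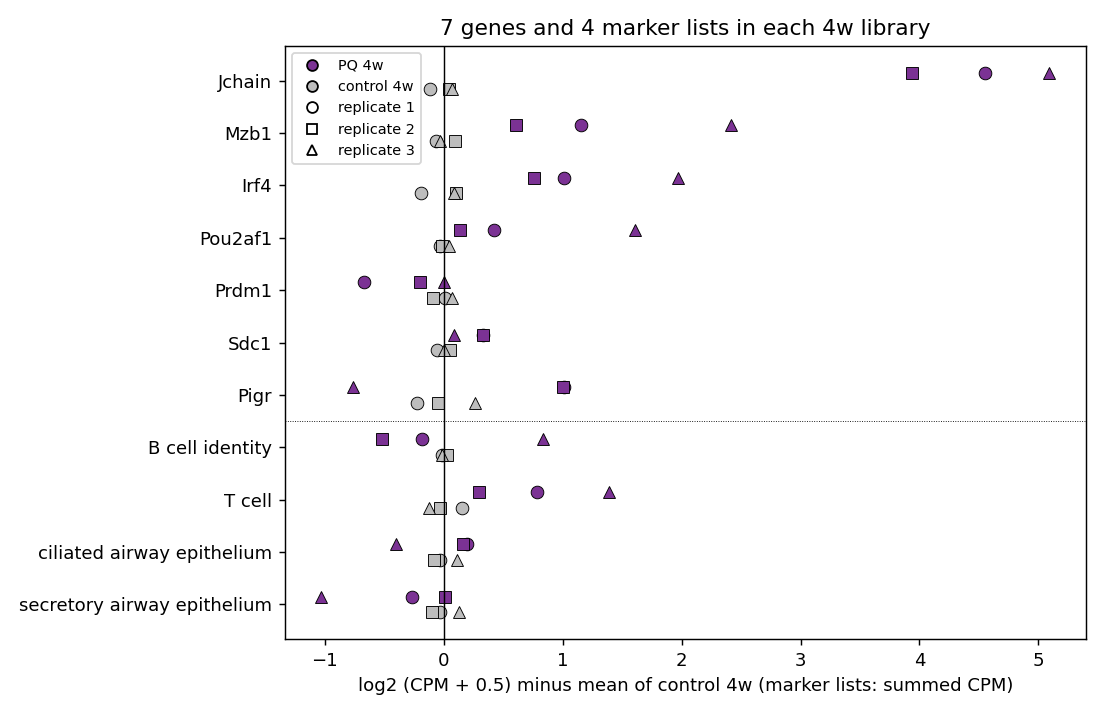
Each 4w library as log2 (CPM + 0.5) minus the mean of the control 4w libraries (horizontal axis), for the 7 genes and, below the dotted line, the summed CPM of 4 marker lists; shapes are replicates. In PQ 4w replicate 3 (triangle) Jchain, Mzb1, Irf4, Pou2af1 and the B and T cell lists are highest, at 5.09 for Jchain and 0.83 for the B cell list, while Pigr is at -0.76 and the secretory airway list at -1.03.

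The effect of PQ differed between the times for all 7 genes in the interaction test of edgeR, beside 32.0% of all genes. It was more positive at 4w for 6 genes, beside 14.1% of all genes, and less positive for Sdc1. The difference of log2 effects, 4w minus 1w, was 5.98 ± 0.60 for Jchain (edgeR adjusted p = 5.37e-05) and 3.39 ± 0.58 for Mzb1 (0.00114). It was 2.67 ± 0.43 for Pou2af1 (edgeR adjusted p = 0.000848) and 2.48 ± 0.43 for Irf4 (0.00121). Leaving out PQ 4w replicate 3 gave 5.64 for Jchain, 2.67 for Mzb1, 2.07 for Pou2af1 and 1.997 for Irf4. For Sdc1 it was -0.51 ± 0.12 (edgeR adjusted p = 0.00657). For Pigr it was 1.62 ± 0.52 (edgeR adjusted p = 0.0326) and for Prdm1 0.84 ± 0.27 (0.0297), and both calls were lost when single libraries were left out. For Prdm1 these were control 1w replicate 3, control 4w replicates 1 and 2, PQ 1w replicates 1 and 3 and PQ 4w replicates 2 and 3, at adjusted p of 0.0524 to 0.0808. For Pigr they were control 1w replicate 1, control 4w replicates 1 and 2, PQ 1w replicates 1 and 3 and PQ 4w replicates 1 and 2, at 0.0653 to 0.083.

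**Figure D3:**
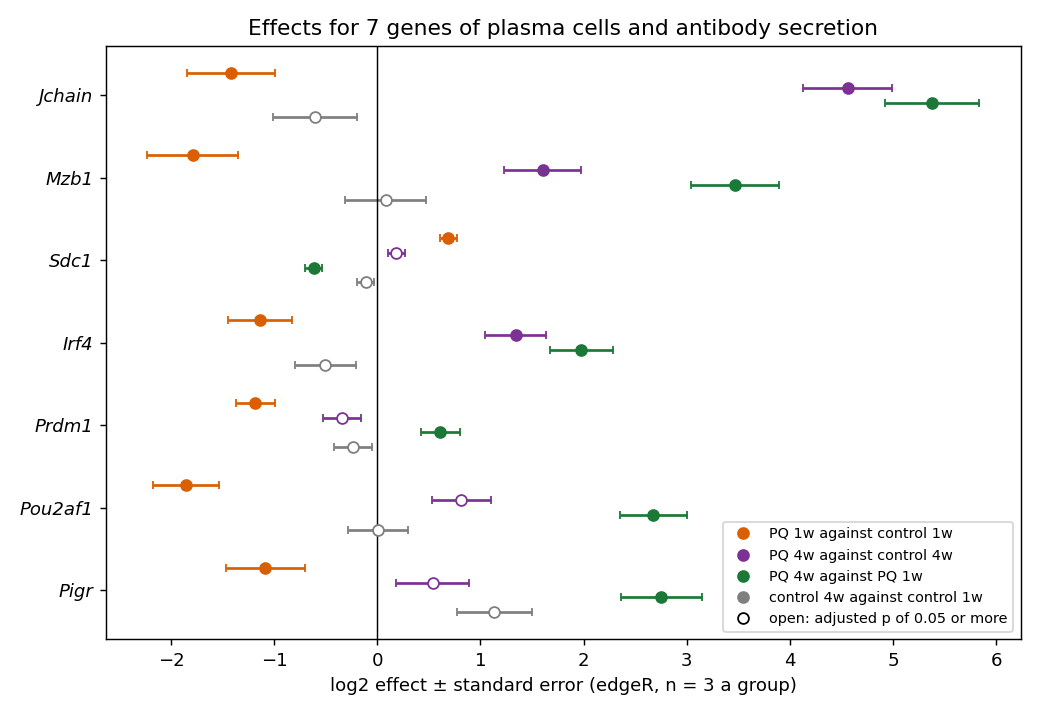
Log2 effects with standard errors (horizontal axis, edgeR, n = 3 a group) for the 7 genes in the 4 comparisons of groups; open points have an adjusted p of 0.05 or more. In PQ 1w against control 1w 6 genes lie below 0 and Sdc1 at 0.69, and in PQ 4w against control 4w Jchain lies at 4.56, apart from the others.

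Within PQ lungs, all 7 genes differed between 4w and 1w, beside 54.5% of all genes; 6 rose, beside 26.7% of all genes, and Sdc1 fell. Jchain was 41.5-fold and Mzb1 11.1-fold higher in PQ 4w than in PQ 1w lungs (edgeR adjusted p of 2.23e-06 and 3.81e-05). In log2 terms these were 5.38 and 3.47, and 5.03 and 2.74 without PQ 4w replicate 3. Pou2af1 rose by 2.68 ± 0.32, Pigr by 2.76 ± 0.39 and Irf4 by 1.98 ± 0.31 on the log2 scale. The values were 2.07 for Pou2af1, 3.13 for Pigr and 1.49 for Irf4 without PQ 4w replicate 3. Sdc1 fell by 0.62 ± 0.08 (edgeR adjusted p = 7.23e-05). Prdm1 rose by 0.61 ± 0.19 (edgeR adjusted p = 0.0172) with overlapping groups, and this was lost without PQ 1w replicate 1 or 3 or PQ 4w replicate 2 or 3 (0.0506 to 0.0767). Between control 4w and control 1w lungs, edgeR called 0 of the 7, beside 10.1% of all genes; 1 had an unadjusted p under 0.05, and DESeq2 called 0. That gene was Pigr, at 108.2 ± 19.02 CPM in control 4w and 49.0 ± 13.5 CPM in control 1w lungs (SD, n = 3 each), a log2 effect of 1.14 ± 0.37 (edgeR adjusted p = 0.067). It passed in a fit of only the control groups (0.00478) and without PQ 4w replicate 3 (0.0021). These comparisons share samples with those of PQ against control.

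B cell identity genes were set beside the members and beside the share of all genes that passed, 48.8% at 1w and 12.1% at 4w. Of 16 tested, 0 rose, 15 fell and 1 did not pass at 1w, with a median log2 effect of -2.07; Cd79a, part of the B cell receptor, had an effect of -2.39. At 4w, edgeR called 0 of 16 (median 0.16), 2 higher and 1 lower had an unadjusted p under 0.05, and DESeq2 called 1; without PQ 4w replicate 3, 0 were higher and 5 lower. Summed over the list, the level was 80.4 to 91.0 CPM in PQ 1w and 243 to 268 CPM in control 1w libraries. It was 280.8, 221.7 and 566.3 CPM in PQ 4w replicates 1, 2 and 3, and 314.8 to 324.0 CPM in control 4w libraries. In replicates 1 and 2, the B cell list was below the controls where Jchain, Mzb1 and Irf4 were above them. The part of B cells in the values of the members was not tested.

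Ratios of FPKM compared genes within a library. The ratio of Jchain to Cd79a was 6.35, 4.87 and 4.18 in PQ 4w lungs, against 0.170, 0.187 and 0.212 in control 4w lungs. That of Mzb1 to Cd79a was 0.466, 0.370 and 0.517 in PQ 4w lungs, against 0.133, 0.147 and 0.148 in control 4w lungs. Neither ratio overlapped between the groups. PQ 4w replicate 3, with the highest B cell list, had the lowest ratio of Jchain to Cd79a and the highest of Mzb1 to Cd79a among the PQ 4w libraries. Jchain over Mzb1 was 13.6, 13.2 and 8.09 in PQ 4w lungs, against 1.275, 1.269 and 1.425 in control 4w lungs, higher in each PQ 4w library than in any control 4w library. Sdc1 over Epcam was 4.34, 4.12 and 4.23 in PQ 1w lungs, against 2.38, 2.50 and 2.88 in control 1w lungs. At 4w it was 2.05, 2.06 and 2.44 in PQ lungs, against 2.26, 2.37 and 2.385 in control lungs, with overlap (exact two-sided permutation p = 0.4). Epcam was chosen after its values were seen and did not pass at 1w. Of its list of 10 general epithelial genes, 6 rose at 1w and 0 fell. That list summed to 2192 to 2720 CPM in PQ 1w and 1448 to 1706 CPM in control 1w libraries. The ratio therefore sets Sdc1 against Epcam alone, not against epithelium in general. At 1w the groups overlapped for Jchain over Cd79a (p = 0.3), Mzb1 over Cd79a (0.2) and Jchain over Mzb1 (0.3), by the same exact test. Of the 16 ratio comparisons made, 9 had an exact two-sided permutation p of 0.1, the smallest that 3 against 3 libraries allow, and 0.178 when adjusted over the 16. These were Jchain over Mzb1, Pou2af1, Irf4, Pigr and Cd79a and Mzb1 over Cd79a at 4w, Sdc1 over Epcam at 1w, and Pigr over Scgb1a1 at both times. Those with Jchain share its values at 4w and are not independent of each other.

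**Figure D4:**
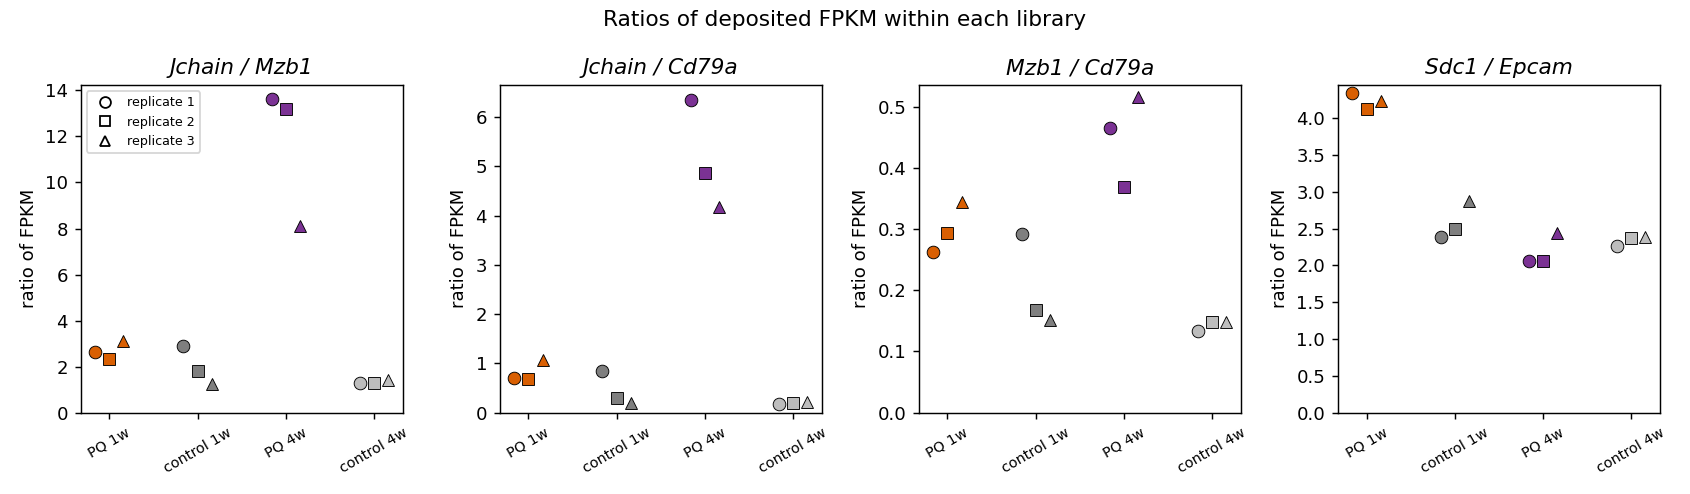
Ratios of deposited FPKM within each library (vertical axes), by group (horizontal axes); points are libraries and shapes are replicates. The ratio of Jchain to Cd79a is at least 4.18 in PQ 4w lungs and at most 0.212 in control 4w lungs.

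Of 10 other plasma cell identity genes, 0 rose, 6 fell and 4 did not pass at 1w (median log2 -0.52), beside 48.8% of all genes that passed. At 4w 4 rose, 0 fell and 6 did not pass (median 0.49), beside 12.1% of all genes. Slamf7, a surface receptor of plasma cells and other lymphocytes, had 22.1, 16.8 and 30.3 CPM in PQ 4w lungs, against 7.61, 6.05 and 6.73 CPM in control 4w lungs. It rose by 1.69 ± 0.22 at 4w and fell by 1.24 ± 0.23 at 1w on the log2 scale (edgeR adjusted p of 0.00124 and 0.000776). Its rise was 1.44 without PQ 4w replicate 3. Lax1, a lymphocyte adaptor, rose by 1.19 at 4w (edgeR adjusted p = 0.0208), and by 0.67 without PQ 4w replicate 3 (0.0228). Fam46c fell by 0.63 at 1w (edgeR adjusted p = 0.00062) and had an effect of 0.16 at 4w that did not pass (0.37). Tnfrsf17, the BCMA receptor of plasma cells, was chosen after its values were seen: it had 1.16, 0.745 and 1.03 CPM in PQ 4w lungs, against 0.225, 0.399 and 0.393 CPM in control 4w lungs (log2 1.44 ± 0.37, edgeR adjusted p = 0.0265; 1.40 without PQ 4w replicate 3). Xbp1, a transcription factor of secretory cells also chosen after its values were seen, fell by 0.42 at 1w (edgeR adjusted p = 0.00197) and had an effect of -0.01 at 4w (0.936).

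Of 18 genes of antibody folding and export, which every secretory cell uses, 5 rose, 6 fell and 7 did not pass at 1w, and 2 rose, 0 fell and 16 did not pass at 4w, with medians of -0.06 and -0.05. Over all genes, 48.8% passed at 1w and 12.1% at 4w. The 2 listed genes that rose at 4w were Derl3, which acts in the disposal of misfolded proteins, and Sec11c, a signal peptidase subunit. Derl3 had 5.98, 3.61 and 10.9 CPM in PQ 4w lungs, against 2.42, 1.997 and 1.96 CPM in control 4w lungs (log2 1.61 ± 0.36, edgeR adjusted p = 0.015), and its log2 effect was 1.09 without PQ 4w replicate 3 (0.0287). Sec11c had an effect of 0.38 (edgeR adjusted p = 0.0121).

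Lists of neighbouring steps gave these counts, beside 48.8% of all genes that passed at 1w and 12.1% at 4w. Of 12 survival and homing genes, 3 rose and 3 fell at 1w and 5 rose and 0 fell at 4w (3 and 1 without PQ 4w replicate 3). Cxcl12, a chemokine that retains plasma cells in the marrow, rose by 0.93 at 1w and 1.01 at 4w, and Cd28, a costimulatory receptor, fell by 1.41 at 1w and rose by 1.10 at 4w (0.74 without PQ 4w replicate 3). Of 7 germinal centre genes tested, 2 rose and 4 fell at 1w and 1 rose at 4w; that gene was Gcsam, a germinal centre signalling gene, at 1.29 (edgeR adjusted p = 0.00192). Of 9 immunoglobulin and Fc receptor genes tested, 4 rose and 2 fell at 1w and 3 rose at 4w, with Fcgr2b, the inhibitory Fc receptor, at 1.26 and 1.03. Of the 7 genes of syndecans, heparan sulphate and shedding, edgeR called 0 at 4w, 2 lower had an unadjusted p under 0.05, and DESeq2 called 0.

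Irf4 and Prdm1 are also used by T cells and dendritic cells. The list counts that follow stand beside 48.8% of all genes that passed at 1w and 12.1% at 4w. Of 12 T cell genes, 0 rose and 11 fell at 1w, and 7 rose and 0 fell at 4w; Foxp3, the factor of regulatory T cells, had an effect of 1.78 at 4w and -1.44 at 1w. The T cell list summed to 147.7, 105.5 and 225.5 CPM in PQ 4w and 78.7 to 95.4 CPM in control 4w libraries. Of 10 dendritic cell genes, 2 rose and 7 fell at 1w, and 7 rose and 0 fell at 4w; Flt3, a growth factor receptor, had 1.54 at 4w. The dendritic list summed to 207 to 266 CPM in PQ 4w and 149 to 157 CPM in control 4w libraries. Of 8 plasmacytoid dendritic cell genes, 1 rose and 4 fell at 1w and 1 rose at 4w. Of 12 macrophage genes, 9 rose and 0 fell at 1w, and 8 rose and 1 fell at 4w. Of 10 alveolar type 2 genes, 0 rose and 8 fell at 1w and 2 rose at 4w (0 without PQ 4w replicate 3). Of the 10 general epithelial genes edgeR called 0 at 4w, 3 higher and 1 lower had an unadjusted p under 0.05, and DESeq2 called 1; without PQ 4w replicate 3, 6 were higher. The part of these cells in the values of Irf4 and Prdm1 was not tested.

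The genes whose levels over the 12 libraries lay closest to each member were found by the root mean square difference of centred log2 (CPM + 0.5) values. Mzb1 was closest to Pla2g2d at 0.248 and then to Pou2af1 at 0.320. Pou2af1 was closest to Spib, Tnfrsf13c and Fcrl1, at 0.219, 0.230 and 0.237. Irf4 was closest to Oas2, Fcrl5 and Lax1, at 0.197, 0.205 and 0.218. Fcrl5 was near the floor, with 0.108, 0.054 and 0.163 CPM in PQ 1w lungs, where the added 0.5 shrinks its changes. Prdm1 was closest to Mtcl1 at 0.113, Sdc1 to Ldha at 0.0778, and Pigr to Ccdc33 at 0.184. Jchain lay farther from its nearest genes: Prg2 and Dnase1l3 were both at 1.14, followed by Mzb1 at 1.25. Prg2 was also near the floor, with at most 0.282 CPM outside PQ 4w lungs. The root mean square differences were not scaled to a gene's spread. A gene with large changes therefore lies far from genes of like pattern with smaller changes. Predicted and unnamed genes were left out, and genes of immunoglobulin constant regions were not analysed. Spib and Tnfrsf13c were also in the B cell list, Fcrl5 was in the germinal centre list and Lax1 was in the plasma cell list. Dnah5, at 0.224 from Pigr, was in the ciliated list. The nearest genes come from the same libraries as the list counts.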

How the data were processed

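Lung RNA of 12 samples was sequenced on a BGISEQ instrument, per the labels' protocols. The submitters' processing notes name HISAT, RSEM 1.2.12 and the mm10 build. The expected counts were deposited unscaled, beside FPKM computed by the authors, per the file headers. Neither strandedness nor annotation release was given in these sources, so reads of overlapping genes cannot be told apart. Of the deposited expected counts 69.7% were whole (tolerance 0.001), and they were rounded. A gene missing from a library's table was taken as 0. Symbols turned into dates (27) were restored from gene IDs, and 20718 IDs matched RefSeq's GRCm38.p6 gene table, which gave coordinates and, for 6 of the 7 genes, promoters.

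CPM are deposited expected counts scaled to the library's total. Counts were tested by quasi-likelihood F-tests of edgeR with TMM scaling (factors 0.974 to 1.06) and filterByExpr (minimum count 10, minimum total 15). The model was fitted to all 12 libraries with 4 group means. The code was also run on simulated counts with a common spread, no outlying library and changes only in well counted genes. That run does not bear on calls for low genes or on PQ 4w replicate 3. Standard errors are approximate (effect size over the root of F). Ratios of FPKM were compared by exact permutation tests. Alternatives were RLE scaling, library totals, no filter, a replicate block, only the groups compared, limma on log2 (FPKM + 0.1), DESeq2 and leaving out each library. Groups and replicate numbers came from the labels. Same-numbered libraries did not as a rule deviate together, and the main fit did not pair samples by number.

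The 7 genes and 16 gene lists (180 genes, 167 matched; Tent5c as Fam46c) were chosen with earlier results of these data known. Beside the 7, the genes named were the 2 with the smallest p of each list at each time and the 3 nearest to each member in level, with exceptions stated; only some of these are printed. List counts and effects of listed genes without PQ 4w replicate 3 were added after seeing the data. The tools were R 4.3.3 with limma 3.58.1, DESeq2 1.42.0 and edgeR 4.0.16, and Python 3.11.15 with pandas 2.3.3, numpy 2.4.6, scipy 1.17.1 and matplotlib 3.10.9.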

Additional observations from a re-analysis of the deposited data

Results flagged for a closer look

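The effect of PQ differed between 4w and 1w for all 7 genes in edgeR's interaction test, beside 32.0% of all genes. The test used Benjamini-Hochberg adjustment over all genes tested. On the log2 scale the difference, 4w minus 1w, was 5.98 for Jchain, 3.39 for Mzb1, 2.67 for Pou2af1, 2.48 for Irf4, 1.62 for Pigr, 0.84 for Prdm1 and -0.51 for Sdc1. The effects at 4w and 1w had opposite signs for Jchain, Mzb1, Irf4, Pou2af1 and Pigr. For Prdm1 both were below 0, and for Sdc1 both were above 0. The differences of Jchain, Mzb1, Irf4, Pou2af1 and Sdc1 passed in each fit that left out 1 library, at 5.29 to 6.30, 2.67 to 3.72, 1.997 to 2.71, 2.07 to 2.94 and -0.56 to -0.44. Those of Prdm1 and Pigr lost the call in some of these fits.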

How the results depend on the processing

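Over the 7 genes and 5 comparisons, 605 of 658 values under alternatives kept their direction and their side of the threshold, 34 lost the call, 6 gained it and 13 reversed. None of the 13 was called: all were in control 4w against control 1w. Pou2af1 reversed 10 times, at -0.0195 with RLE scaling, -0.00641 with no filter, -0.000994 in a fit of only these groups, -0.0195 with DESeq2 and in 6 of the fits that left out 1 library, which ranged over -0.0911 to 0.109. Jchain reversed without control 1w replicate 1, within a range of -0.935 to 0.0765, and Mzb1 without control 1w replicate 2 or 3, within a range of -0.0421 to 0.301; the other such fits kept their direction. A fit of only the groups compared called 746 genes and 1 of the 7 in PQ 4w against control 4w, beside 1932 and 3, and 1 of the 7 in control 4w against control 1w, beside 0. Leaving out each library gave 6704 to 8264 genes and 4 to 7 of the 7 in PQ 1w against control 1w, beside 7772 (48.8%) and 7. It gave 4 of the 7 without control 1w replicate 1. In PQ 4w against control 4w it gave 641 to 2104 genes and 1 to 5 of the 7, with 641 and 1 without control 4w replicate 1, 5 without PQ 4w replicate 3, and 1096, 1183 and 994 genes without control 4w replicate 2, control 4w replicate 3 and PQ 4w replicate 1. In control 4w against control 1w it gave 123 to 2570 genes, beside 1609, and 0 to 1 of the 7; the lowest came without control 4w replicate 2, and the highest without PQ 4w replicate 3. The cause was not tested.

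The replicate numbers were shared by the groups, but correlations of same-numbered libraries' deviations across genes were -0.407 to 0.361, with 5 of 18 above 0.1. The library with a sample's own number correlated best in 11 of 36 cases. With 3 libraries a group, these values cannot show whether same-numbered samples belong together. With the replicate block, edgeR called 7636 genes in PQ 1w against control 1w, 1646 in PQ 4w against control 4w, 4826 for the difference, 8453 in PQ 4w against PQ 1w and 1447 in control 4w against control 1w, and 7, 3, 6, 7 and 0 of the 7. The call it lost was the difference for Pigr, at 1.51 (adjusted p = 0.0576); limma on FPKM gave 1.46 (0.0771).

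Mzb1 had 24 to 36 counts in the PQ 1w libraries and Tnfrsf17 fewer, which limits their precision. With 3 libraries a group, no exact test of a single value can pass.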

Other observations

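The airway antimicrobial genes Bpifb1 and Reg3g, chosen after their values were seen, varied widely between libraries of a group. Bpifb1 had 423, 446 and 17.9 CPM in PQ 4w lungs, against 95.2, 146.7 and 147.5 CPM in control 4w lungs. Reg3g had 205, 224 and 4.58 CPM in PQ 4w lungs, against 15.8, 41.7 and 29.9 CPM in control 4w lungs. In both, as for Pigr, PQ 4w replicates 1 and 2 were above all controls and replicate 3 was below them. At 1w, control replicate 1 had the highest Bpifb1, Reg3g, Pigr, Jchain, Mzb1, Irf4 and Pou2af1 of its group. No PQ effect passed for either gene (edgeR adjusted p of 0.599 and 0.145 at 1w and 0.553 and 0.24 at 4w).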
